A study of Mus musculus with 6 samples.

Results

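The Hoxd cluster was examined for methylated DNA at 3 stages of mouse blood formation: the hematopoietic stem cell (HSC), the common myeloid progenitor (CMP), and the erythroblast (ERY), a red cell precursor that still has its nucleus. Its members were all peaks of the 3 MBD2 peak lists that overlapped chr2:74490000-74610000 on the mm9 build, a window of 120 kb that runs from Hoxd13 to Hoxd1. They were set against the 200 kb on each side. The window held 5 of the 164274 peaks in the lists, namely 3 of 85797 HSC peaks, 2 of 50638 CMP peaks and 0 of 27839 ERY peaks. The series asks how DNA methylation profiles change as stem cells differentiate. MBD2 is a protein that binds methylated CpG sites, so a pulldown with it enriches fragments that carry several of them, and each peak is a stretch where the authors called such an enrichment. Each cell type had 1 MBD2-enriched library and 1 supernatant library, and the supernatant libraries were not analysed here.

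All samples are labelled C57BL/6 and female. HSC were sorted from adult bone marrow as lineage-negative cells with both Sca-1 and c-kit on their surface. CMP were sorted from adult bone marrow as lineage-negative cells with c-kit and without Sca-1. The first gate also takes in multipotent progenitors, and the second takes in granulocyte-macrophage and megakaryocyte-erythroid progenitors. The sources used here do not say how the ERY were obtained, how old their donors were or how many animals stood behind any library. Peak lists hold no expression values, so the cell labels were not checked against marker genes. In a bulk pulldown, a region methylated in few cells and one methylated weakly in all cells cannot be told apart. The depth of the libraries is unknown. A base outside a list is one where no peak was called, at whatever sensitivity that list had, and with 1 library each the cell types are compared without replicates.

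Hox genes encode homeodomain transcription factors that give cells their position along the body axis, and within a cluster they lie in the order in which they act. The Hoxd13 end of the cluster is known for its part in limbs, digits and the urogenital tract, and genes toward the Hoxd1 end act further forward in the embryo. In blood-forming cells the genes of the Hoxa and Hoxb clusters are the ones best known for their activity, and Hox clusters that a cell does not use are usually held silent by Polycomb proteins. Their CpG-rich gene starts belong to CpG islands, a class of sequence that is typically free of DNA methylation in normal cells.

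The number of CpG sites at the gene starts was counted from reference sequence, which says nothing of their methylation. The RefSeq table used here, which is on GRCm38.p6, holds windows of 300 bases, from 250 before to 50 after each gene start. It matched all 9 Hoxd genes, with 10 windows because Hoxd11 has 2 starts. The starts of 3 genes are printed, those at the outer ends of the cluster, Hoxd13 and Hoxd1, together with that of Hoxd4. Over its full window of 300 bases, Hoxd4 shares the lowest number of CpG sites with the first Hoxd11 start. Only the 250 bases before each start are shown, 5′ to 3′ on the plus strand, with every CpG in capitals. On GRCm38.p6 they are chr2:74667975-74668224 for Hoxd13, chr2:74721728-74721977 for Hoxd4 and chr2:74762730-74762979 for Hoxd1. These positions belong to another build than the peaks and cannot be compared with theirs.
Hoxd13: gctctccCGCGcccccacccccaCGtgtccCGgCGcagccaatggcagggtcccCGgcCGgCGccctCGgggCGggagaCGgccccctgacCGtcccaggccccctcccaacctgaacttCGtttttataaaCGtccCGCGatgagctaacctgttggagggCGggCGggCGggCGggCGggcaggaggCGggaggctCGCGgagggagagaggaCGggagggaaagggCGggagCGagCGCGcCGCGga
Hoxd4: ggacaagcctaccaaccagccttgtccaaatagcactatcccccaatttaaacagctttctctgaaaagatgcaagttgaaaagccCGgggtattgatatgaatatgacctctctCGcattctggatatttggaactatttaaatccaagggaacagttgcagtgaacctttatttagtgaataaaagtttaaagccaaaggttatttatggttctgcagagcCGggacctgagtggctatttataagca
Hoxd1: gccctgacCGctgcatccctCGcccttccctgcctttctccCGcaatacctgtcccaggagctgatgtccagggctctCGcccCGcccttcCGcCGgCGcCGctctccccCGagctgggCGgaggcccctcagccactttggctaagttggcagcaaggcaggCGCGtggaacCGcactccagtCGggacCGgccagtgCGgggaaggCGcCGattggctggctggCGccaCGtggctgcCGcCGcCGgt
The Hoxd13 sequence holds 31 CpG sites, that of Hoxd4 holds 3 and that of Hoxd1 holds 24.

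Over the full 300 bases, CpG content differed widely among the Hoxd genes. The Hoxd13 start, of the gene that acts at the tips of the limbs, had 37 CpG sites and 74.3% G and C. The Hoxd1 start had 29 CpG sites, the second Hoxd11 start 25, and the Hoxd10 start 22. The Hoxd9 and Hoxd3 starts had 20 each, and the Hoxd12 start had 13. The remaining starts were poor in CpG, with 6 in Hoxd8, 4 in Hoxd4 and 4 at the first start of Hoxd11. Of the 10 Hoxd windows, 7 had more CpG sites than the median of 7 over all 32851 windows of the table, as 48.6% of all windows do. The upper quartile of the table, 20, was reached by 6 of the 10 and by 26.5% of all windows. For Hoxd13, 5.58% of all windows had at least as many. ETS factor sites are named in the title of the series, and CCGGAA, a core of such sites, was the one motif searched besides CpG, on both strands. It was found in 1 of the 10 Hoxd windows, that of Hoxd12, and in 14.9% of all windows. A match is a run of letters and not a bound site.

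**Figure D1:**
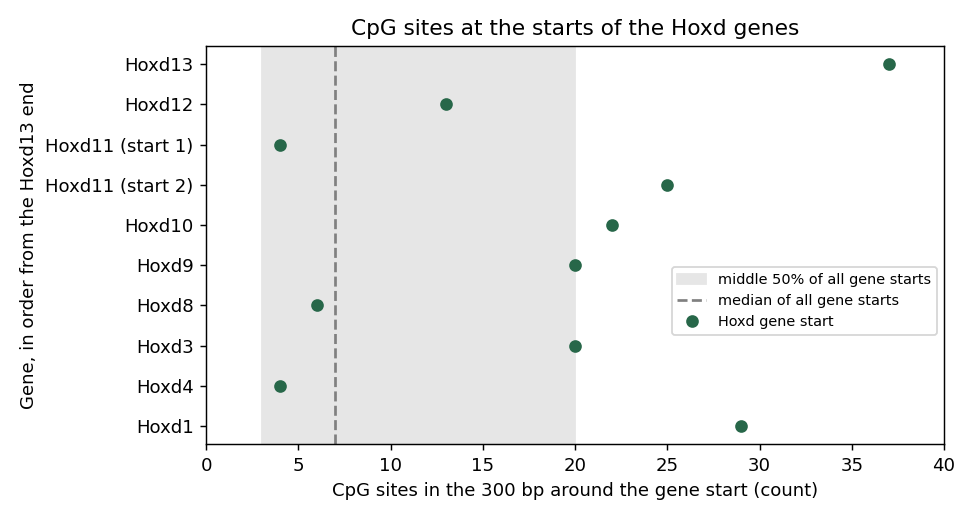
Number of CpG sites in the 300 bases around each Hoxd gene start (x axis, count). Genes are listed from the Hoxd13 end downward by the position of their RefSeq start, which puts Hoxd3 before Hoxd4. Points are the 10 starts, the grey band spans the middle 50% of all 32851 starts in the table (3 to 20) and the dashed line is their median of 7. Hoxd13 stands highest at 37 and Hoxd4 and the first Hoxd11 start lowest at 4.

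The Hoxd cluster held 3 methylated regions, which lay close together. HSC had 3 peaks in the window, CMP had 2 and ERY had none. They covered 2058 bp in HSC (1.71% of the window), 1577 bp in CMP (1.31%) and 0 bp in ERY. All of them fell in a single stretch between 71.1 and 77.0 kb from the Hoxd13 end, past the middle of the cluster. Of 12 consecutive bins of 10 kb, 1 held every HSC peak and every CMP peak, and 11 held no peak of any list. The first 71.1 kb, which begin at the Hoxd13 end, and the last 43.0 kb, which close at the Hoxd1 end, were free of peaks in all 3 lists. The rule gives the window as running from Hoxd13 to Hoxd1. No gene start was placed among the peaks, since no mm9 gene positions were used here.

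**Figure D2:**
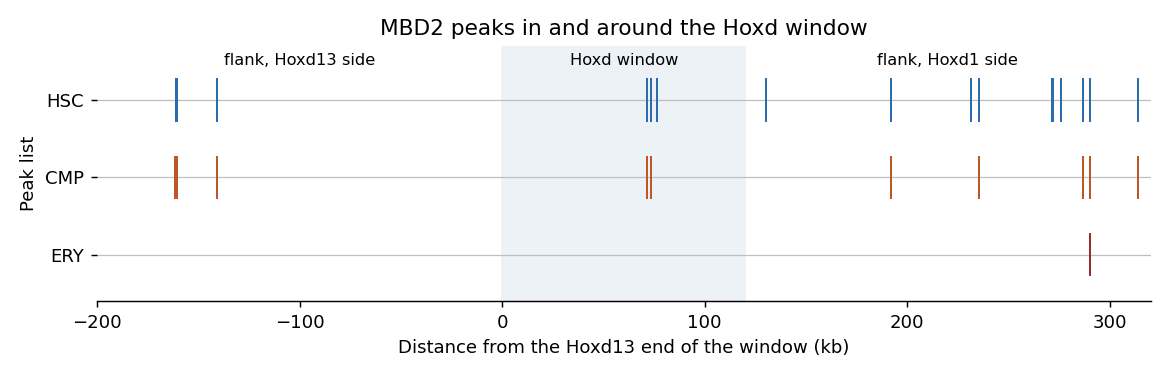
Peaks of the HSC, CMP and ERY lists (rows) by distance from the Hoxd13 end of the window (x axis, kb), with the window shaded and 200 kb shown on each side. Each bar is 1 peak, drawn at least 1 kb wide so that it can be seen. Inside the window the HSC and CMP peaks sit together near 71.1 to 77.0 kb and the ERY row is empty.

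The peak nearest to the Hoxd13 end was shared by stem cells and progenitors. In HSC it lay at chr2:74561079-74561837 and was 759 bp wide, and in CMP it lay at chr2:74561058-74561906 and was 849 bp wide. The ERY list had no peak there. The second was shared in the same way. It lay at chr2:74563251-74563765 in HSC, with a width of 515 bp, and at chr2:74563154-74563881 in CMP, with a width of 728 bp, again without an ERY peak. The third, at chr2:74566213-74566996 and 784 bp wide, was called in HSC alone. Gaps of 1413 and 2447 bp separated the HSC peaks, a gap of 1247 bp separated the CMP peaks, and in ERY there was nothing to measure.

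**Figure D3:**
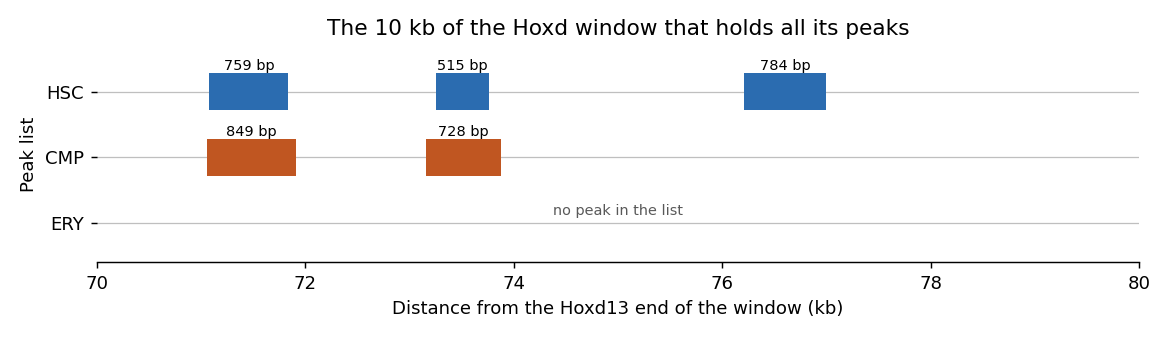
The 10 kb of the window that hold its peaks, by distance from the Hoxd13 end (x axis, kb), with 1 row per list and each peak to scale with its width in bp. Both CMP peaks enclose an HSC peak, the third HSC peak (784 bp) has no CMP counterpart, and the ERY row holds none.

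Both CMP peaks enclosed the HSC peak that they overlapped. The first began 21 bp before it and ended 69 bp after it, a width 90 bp greater in CMP. The second began 97 bp before and ended 116 bp after, a width 213 bp greater. Among all 46679 pairs in which 1 CMP peak met 1 HSC peak, the CMP peak enclosed the HSC peak in 23.4% and was the wider in 49.0%. The median difference in width, CMP minus HSC, was -5 bp with an interquartile range of -162 to 150 bp. A difference of at least 90 bp was found in 34.4% of pairs and one of at least 213 bp in 16.8%. The 2 Hoxd pairs are too few to set apart from these.

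The Hoxd peaks were of ordinary width. Of the whole HSC list, 51.7% of peaks were narrower than the first Hoxd peak, 15.4% than the second and 55.6% than the third. In the CMP list these shares were 55.9% for the first and 34.2% for the second. Over whole lists, HSC peaks had a median width of 748 bp, CMP peaks one of 818 bp and ERY peaks one of 788 bp.

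Of the 3 HSC peaks of the cluster, 2 had a CMP peak over them (66.7%, 95% exact Clopper-Pearson interval 9.43 to 99.2%), at an overlap of 1 bp or more. Over the whole HSC list 57.1% of peaks had one. In the other direction both CMP peaks overlapped an HSC peak, as 96.5% of all CMP peaks did. None of the HSC and CMP peaks of the cluster had an ERY peak over it. An ERY peak lay over 0 of 2 CMP peaks (interval 0 to 84.2%) and over 0 of 3 HSC peaks (0 to 70.8%), where 50.7% of all CMP peaks and 30.9% of all HSC peaks had one. Each genome-wide share lies inside the interval of the cluster, so a difference between the cluster and the genome was not detectable with so few peaks. The intervals assume independent peaks and reflect counting error alone. Merged over the lists, the cluster had 3 methylated regions, 1 in HSC alone and 2 in HSC and CMP without ERY, classes that hold 40.7% and 26.4% of all 87514 regions. It had none in the class shared by all cell types, which holds 28.5%.

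The number of peaks in the cluster was close to that of a typical stretch of the same length. Its 3 HSC, 2 CMP and 0 ERY peaks were set against 21468 windows of 120 kb cut from the part of the genome spanned by peaks. These had a median of 3 HSC peaks (interquartile range 1 to 6), 1 CMP peak (0 to 3) and 1 ERY peak (0 to 2). Windows with at most as many peaks as the cluster made up 60.5% for HSC, 66.9% for CMP and 45.5% for ERY. Among the 2270 windows with 3 HSC peaks, 37.6% had no ERY peak, 39.3% had 2 CMP peaks and 11.4% had both features. By density it had 2.5 HSC peaks per 100 kb, against 3.31 on chromosome 2 and 3.33 in the genome. For CMP the values were 1.67 in the cluster, 1.94 on chromosome 2 and 1.96 in the genome, and for ERY they were 0, 1.06 and 1.08. The cluster shared its absence of ERY peaks with 45.5% of windows.

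**Figure D4:**
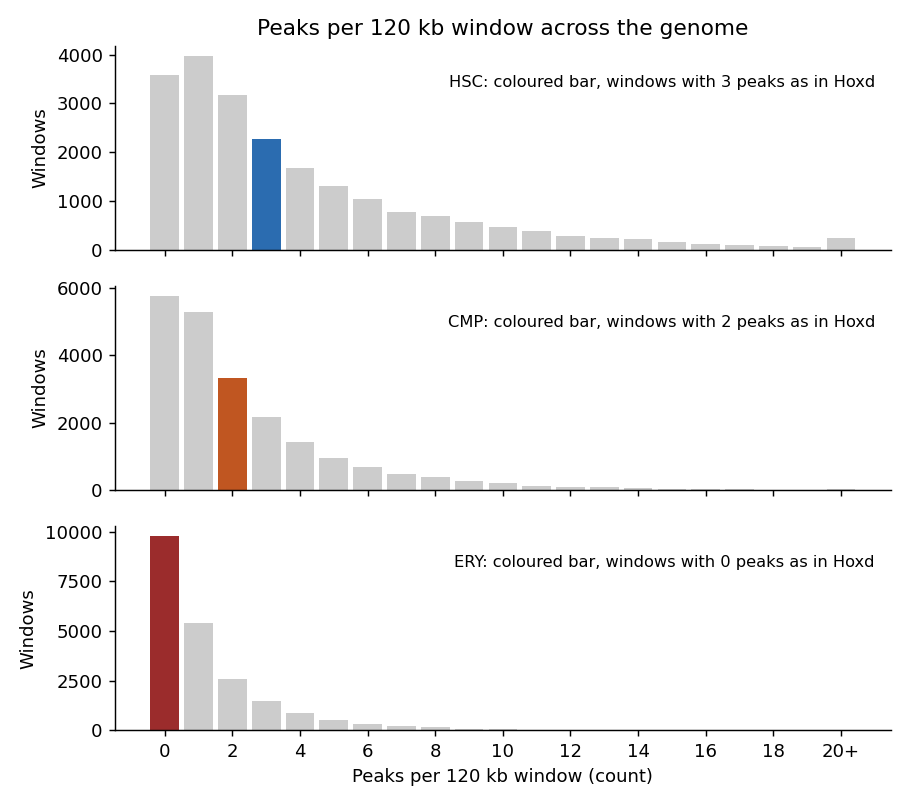
Number of genome windows of 120 kb (y axis) by the number of peaks in them (x axis, count, with 20 or more pooled), for HSC, CMP and ERY from top to bottom. The coloured bar marks windows with as many peaks as the Hoxd window, 3 in HSC, 2 in CMP and 0 in ERY, and in each panel it stands in the body of the distribution.

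The peaks of the cluster lay closer together than most runs of peaks, beside long stretches without any. The 3 HSC peaks together spanned 5.92 kb, which is 4.93% of the window. Of 85755 runs of 3 consecutive HSC peaks in the genome, 6.31% were as short or shorter, and the median run spanned 30.2 kb. The empty Hoxd13 end was part of a longer stretch without peaks. In HSC it reached 211.7 kb, from chr2:74349385 to chr2:74561078, and in CMP 211.6 kb, from chr2:74349469 to chr2:74561057. Of all gaps between neighbouring peaks, 1.72% in HSC and 4.61% in CMP were at least as long, and such gaps hold 20.2% and 33.6% of all gap bases in those lists. On the Hoxd1 side the gap was 53.0 kb in HSC and 117.8 kb in CMP. In ERY a single gap of 736.1 kb, from chr2:74043632 to chr2:74779770, contained the whole cluster. Only 1.33% of ERY gaps were at least as long, and they hold 16.5% of the gap bases in that list. The median gap was 10.7 kb in HSC, 19.1 kb in CMP and 32.6 kb in ERY. These shares are descriptions of where the locus stands and not tests.

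The DNA on either side of the cluster was unequal. The 200 kb beyond the Hoxd13 end of the window held 2 HSC peaks, 2 CMP peaks and no ERY peak. The 200 kb beyond the Hoxd1 end held 9 HSC peaks, 5 CMP peaks and 1 ERY peak. In the RefSeq gene order Evx2 and Lnpk lie on the Hoxd13 side and Mtx2 on the Hoxd1 side. Whether each of these genes lies in the window or in a flank was not determined, since no mm9 gene positions were used. The cluster had 2.5 HSC, 1.67 CMP and 0 ERY peaks per 100 kb, and both flanks together had 2.75, 1.75 and 0.25. Which of them was denser depended on the length of the flanks. Against 100 kb on each side, the cluster had the higher density in HSC and in CMP, since these shorter flanks had 1 HSC, 0.5 CMP and 0 ERY peaks per 100 kb.

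Of 11 flanking HSC peaks, 7 had a CMP peak (63.6%, interval 30.8 to 89.1%) and 1 had an ERY peak (9.09%, 0.23 to 41.3%). The shares over the whole HSC list, 57.1% and 30.9%, lie inside these intervals, so a difference between the flanks and the genome was not detectable. On the Hoxd13 side the regions were chr2:74328280-74330064, 1785 bp wide, and chr2:74348718-74349468, 751 bp wide, both with HSC and CMP peaks and no ERY peak. The widest on the Hoxd1 side, chr2:74779651-74780755 and 1105 bp wide, was the one region of the cluster and its flanks with a peak in all 3 lists, and its ERY peak was 865 bp wide. The next widest there were chr2:74803544-74804488, 945 bp wide and without an ERY peak, and chr2:74765630-74766468, 839 bp wide and called in HSC alone. No region of the cluster or its flanks had a CMP or ERY peak without an HSC peak. Such regions are rare everywhere. Of all merged regions in the genome, 1.72% were in CMP alone, 1.16% in ERY alone and 0.323% in CMP and ERY without HSC.

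The order of the cell types in the cluster stayed when each list was cut to its wider 50%, and changed when the lists were cut to equal length. With the wider 50% of each list, 2 HSC peaks, 1 CMP peak and 0 ERY peaks were left in the window. With lists reduced to the 27839 widest peaks each, the length of the ERY list, 0 HSC peaks, 1 CMP peak and 0 ERY peaks were left, since that cut removes HSC peaks under 873 bp and CMP peaks under 790 bp.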

How the data were processed

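Methylated DNA was enriched by MBD2 pulldown and sequenced as 36 bp single-end Illumina reads, of which those placed uniquely were used, per the labels' protocols. For each cell type the authors deposited a list of peak positions (chromosome, start, end) that, per the file headers, came out of a browser table query. No height, score or p-value is given. Positions are on mm9 according to the submitters' processing notes. The sources used here do not name the aligner, or the peak caller with its threshold and control.

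From these lists, peaks overlapping the window by 1 bp or more were taken. Overlapping or adjoining peaks of the lists were joined into regions. All regions of the window are named by rule, with the 3 widest on each side. Genome windows were cut on a fixed grid between the first and last peak of each chromosome. Positions are 1-based. Python 3.11.15, numpy 2.4.6, scipy 1.17.1 and matplotlib 3.10.9 were used, and overlaps were checked against bedtools 2.31.1 and tested on simulated data. The window and the descriptions were chosen with earlier results of these data known; the comparisons of gap lengths, of runs of peaks and of windows with 3 HSC peaks were added after the peaks were seen. No test between cell types was made, since each has 1 library. Alternatives changed list length, overlap rule, window and flank length, merging, bins and tiling.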

Additional observations from a re-analysis of the deposited data

How the results depend on the processing

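Of 81 values recomputed under the alternatives, 58 stayed within 1.5 times the count or density, or inside the interval of the share, and 23 did not. The intervals of shares over 2 or 3 peaks are so wide that staying inside them says little. ERY had no peak in the window under any alternative run, but this outcome was fixed in advance. The cuts of the lists cannot add peaks, and the ERY gap of 736.1 kb extends far beyond the changed window ends. With the wider 50% of each list the window had 1 CMP peak and 1 region in HSC and CMP, and the flanks had 1 HSC and 0.75 CMP peaks per 100 kb, with 0.5 regions per 100 kb in HSC alone and 0.25 in HSC and CMP. With equal lists of the widest peaks the window had 0 HSC peaks and 1 CMP peak, hence 0 regions in HSC alone and 0 in HSC and CMP. The flanks then had 0.5 HSC and 0.75 CMP peaks per 100 kb, with 0 and 0.25 regions per 100 kb in these classes, and of their HSC peaks 100% had a CMP peak and 50% an ERY peak. Both cuts remove narrow peaks by construction. With flanks of 100 kb there were 1 HSC, 0.5 CMP and 0 ERY peaks per 100 kb, 0.5 regions per 100 kb in each of the classes, and 0% of HSC and 0% of CMP peaks had an ERY peak, over fewer peaks. Changing the window ends by 10 kb, requiring peaks wholly inside, the other overlap rules, merging within 500 bp, 1 kb and 20 kb bins and shifted tiling moved no value beyond these limits. No paired analysis was possible because each cell type has 1 library and no test was made. Read depth is unknown, and the part of sensitivity in the list lengths was not tested.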
